A study of Arabidopsis thaliana with 9 samples.

Results

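The genes described here encode the plant elicitor peptide (Pep) precursors PROPEP1 (AT5G64900), PROPEP2 (AT5G64890) and PROPEP3 (AT5G64905) and the Pep receptors PEPR1 (AT1G73080) and PEPR2 (AT1G17750) of Arabidopsis thaliana. They were chosen by gene ID and are 5 of the 32833 genes listed in the files. All 5 had enough reads to be tested. RNA from roots of seedlings 4 to 5 days old was sequenced as stranded, poly(A)-selected libraries of paired reads. All seedlings were T3 plants of STZ-OE line #2, a single transgenic line in the Col-0 background that carries p35S::XVE>>pLexA::STZ. In it the constitutive 35S promoter drives XVE, an activator that binds estradiol and then switches on the LexA promoter in front of STZ, which encodes a C2H2 zinc finger transcription factor (ZAT10). There were 3 libraries from seedlings given 20 µM estradiol for 24 h, 3 from seedlings given 20 µM estradiol for 6 h and 3 from mock seedlings given the solvent ethanol for 24 h. The transgene was present in the mock seedlings too, and no line without it was among these libraries. The sources differ on how much of the lower root was taken.

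Peps are danger signals that the plant makes itself. A PROPEP protein stays inside the cell until damage or attack raises calcium, whereupon metacaspases cut it and release the C-terminal peptide. The peptide binds the extracellular leucine-rich repeats of PEPR1 or PEPR2, which then join a co-receptor of the SERK family and start calcium influx, an oxidative burst, MAP kinase activity and defense transcription, and in roots growth is inhibited. The comparisons below ask how transcripts of this signal and its receptors stood after STZ had been switched on for a shorter or a longer time.

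The 3 precursor genes lie in tandem on the plus strand of chromosome 5, in the order PROPEP2, PROPEP1, PROPEP3, and span 5513 bases (TAIR10.1 assembly). PROPEP2 is at chr5:25934568-25935612, PROPEP1 at chr5:25937078-25938176 and PROPEP3 at chr5:25939562-25940080. PROPEP2 and PROPEP1 each have 2 exons, with an intron of 370 bases in PROPEP2 and of 408 bases in PROPEP1, and PROPEP3 has 1 exon. Gaps of 1465 and 1385 bases without an annotated gene separate them. The receptor genes lie apart on chromosome 1, both on the plus strand with 2 exons, PEPR1 at chr1:27484240-27488204 and PEPR2 at chr1:6106323-6110120. Coding sequences were 62.4% identical between PROPEP1 and PROPEP2, 56.5% between PROPEP1 and PROPEP3, 50% between PROPEP2 and PROPEP3, and 72.7% between PEPR1 and PEPR2, over aligned positions with gaps counted as differences. The longest identical stretch was 12 bases between any of the precursors and 32 bases between the receptors. Every read counted for the 5 genes was also uniquely mapped, except for PEPR1, where 801 of 802 reads were unique in 24 h replicate 2 and 1137 of 1140 in 6 h replicate 2.

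The end of the precursor's coding sequence carries the peptide that the receptors read, and it is shown so that the 3 precursors can be compared. The stretch from PROPEP1 holds its last 23 codons, which encode PEP1, at chr5:25937868-25937936. The stretches from PROPEP2 (chr5:25935235-25935303) and PROPEP3 (chr5:25939853-25939921) are the in-frame windows of 69 bases that matched it best without gaps. All are from the RefSeq TAIR10.1 genome, plus strand, and capitals mark the 30 bases that the 3 genes share.
PROPEP1: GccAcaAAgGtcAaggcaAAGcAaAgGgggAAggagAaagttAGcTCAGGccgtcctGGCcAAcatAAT
PROPEP2: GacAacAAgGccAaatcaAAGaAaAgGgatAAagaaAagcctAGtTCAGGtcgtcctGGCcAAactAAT
PROPEP3: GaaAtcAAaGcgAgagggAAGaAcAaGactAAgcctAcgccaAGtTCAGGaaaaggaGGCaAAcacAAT
PROPEP2 matched the PROPEP1 end at 51 of the 69 bases and PROPEP3 matched it at 34. In PROPEP3 this window also ends at the stop codon, whereas in PROPEP2 another 13 codons follow it.

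The 250 bases before each annotated gene start were searched for the W-box, the element bound by WRKY transcription factors. The letters searched were TTGACC and TTGACT on both strands (GGTCAA and AGTCAA when read on the other strand). They are in capitals below, in sequence from the plus strand of RefSeq TAIR10.1 at chr5:25936828-25937077 for PROPEP1, chr5:25934318-25934567 for PROPEP2 and chr5:25939312-25939561 for PROPEP3.
PROPEP1: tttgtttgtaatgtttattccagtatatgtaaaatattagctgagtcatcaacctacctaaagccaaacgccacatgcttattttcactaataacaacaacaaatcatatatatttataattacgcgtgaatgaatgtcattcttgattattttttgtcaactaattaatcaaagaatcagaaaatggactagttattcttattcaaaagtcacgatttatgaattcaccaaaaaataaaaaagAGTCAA
PROPEP2: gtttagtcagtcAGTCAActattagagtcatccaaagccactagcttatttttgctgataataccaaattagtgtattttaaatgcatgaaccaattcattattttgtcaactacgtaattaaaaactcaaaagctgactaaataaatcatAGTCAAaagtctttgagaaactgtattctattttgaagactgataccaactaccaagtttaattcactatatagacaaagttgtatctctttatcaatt
PROPEP3: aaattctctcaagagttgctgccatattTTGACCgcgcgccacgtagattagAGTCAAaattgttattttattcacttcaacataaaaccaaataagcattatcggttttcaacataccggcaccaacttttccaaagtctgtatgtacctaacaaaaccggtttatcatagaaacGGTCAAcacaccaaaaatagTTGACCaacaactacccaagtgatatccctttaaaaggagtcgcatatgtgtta
PROPEP1 had 1 W-box, starting 6 bases before the gene, PROPEP2 had 2 and PROPEP3 had 4. Among 27443 windows of the same length before annotated genes, 28.4% held at least 1 W-box, 6.18% at least 2 and 1.06% at least 3. The PEPR1 window held 2 and the PEPR2 window 0. The other motif searched was a pair of AGT or ACT separated by 3 or 4 bases, the kind of repeat that STZ and related zinc fingers bind, and the ACT in it can overlap the end of TTGACT. It occurred in 36.9% of all windows, at 2 positions each in PROPEP2 and PEPR2, and not in the windows of the other 3 genes. These matches describe the letters only, and binding was not measured.

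The libraries held 24375822 to 31299634 counted exon reads each. STZ, the induced gene, rose by 8.89 ± 0.23 (log2, SE) at 24 h and by 5.63 ± 0.20 at 6 h against mock, and it was higher in every estradiol library than in any mock library. All 6 root markers had reads in every library, and their summed level was 10479 to 12547 CPM at 24 h and 18228 to 19052 CPM at 6 h, against 15676 to 16433 CPM in mock. PYK10 made up most of this sum, with means of 11047 CPM at 24 h and 18319 CPM at 6 h, against 15809 CPM in mock. Among the 6 markers SCR rose by 1.16 ± 0.14 at 24 h against mock, and PYK10 fell by 0.73 ± 0.11 at 24 h against 6 h. Of 6 shoot tissue markers, which are photosynthesis genes, 5 were tested and all 5 fell in both comparisons with mock. Their summed level was 37.2 to 42.9 CPM at 24 h and 40.4 to 45.3 CPM at 6 h, against 172.5 to 180.6 CPM in mock, and the defining marker LHCB1.1 had at most 4 reads in a library. The part of the root and shoot markers in the results that follow was not tested. In bulk roots, fewer cells of a type and less RNA per cell cannot be told apart.

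At 24 h of estradiol 4 of the 5 genes were lower than in mock: PROPEP2, PROPEP3, PEPR1 and PEPR2. At 6 h, PROPEP1 and PROPEP2 were lower than in mock, and PROPEP3 was lower at 24 h than at 6 h. These changes met the rule for a call given next, and no rise of a member met it. Other changes passed only its p limit, at sizes below 1.5-fold. PROPEP1 gained 0.57 ± 0.15 (log2, SE) at 24 h against 6 h (edgeR adjusted p = 0.0066). PEPR1 (-0.41 ± 0.08) and PEPR2 (-0.48 ± 0.11) lost at 6 h against mock (edgeR adjusted p = 0.00162 and 0.00501). PEPR2 also lost at 24 h against 6 h (-0.47 ± 0.12, edgeR adjusted p = 0.0045). A gene was called when its edgeR quasi-likelihood p, adjusted over 20272 genes by Benjamini-Hochberg, was under 0.01 and its change at least 1.5-fold. By this rule 4 of 5 members fell at 24 h against mock, where 18% of all tested genes fell and 35.5% were called in either direction. At 6 h against mock 2 of 5 fell, beside 7.71% of all genes that fell and 13.1% called in either direction. At 24 h against 6 h 1 of 5 fell, beside 10.5% of all genes that fell and 24.6% called. The median log2 change of the members was -0.77 at 24 h against mock, -0.48 at 6 h against mock and -0.47 at 24 h against 6 h, and that of all tested genes was between -0.02 and 0.00. Both comparisons with mock share the same mock libraries. Levels below are CPM, counts scaled to library size with TMM factors, unless RPKM, which also divides by exon length, is named.

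**Figure D1:**
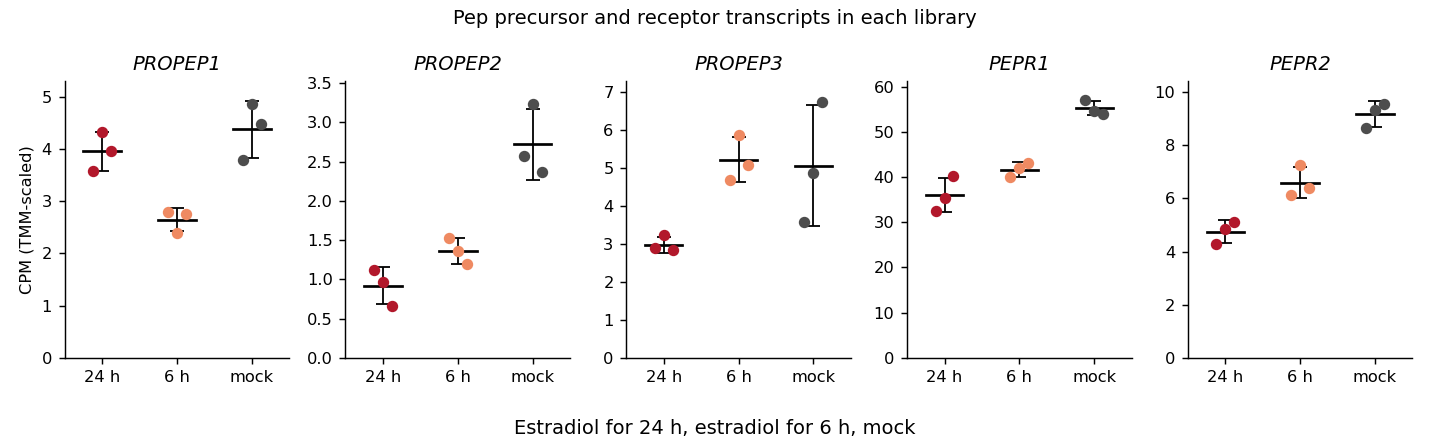
CPM of each of the 5 genes (vertical axes, TMM-scaled, starting at 0) in the 3 libraries each of 24 h estradiol, 6 h estradiol and mock, with the group mean (bar) and SD (whisker). PROPEP2, PROPEP3, PEPR1 and PEPR2 are lower in every 24 h library than in any mock library, while PROPEP1 is lowest at 6 h.

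PROPEP1 encodes the precursor of PEP1, the founding member of the family. It had 102, 98 and 102 reads at 24 h (3.58, 4.33 and 3.96 CPM), 75, 65 and 78 reads at 6 h (2.79, 2.39 and 2.75 CPM) and 103, 143 and 142 reads in mock (3.79, 4.86 and 4.47 CPM). Every 6 h library was below every library of the other groups, and the 24 h and mock libraries overlapped. CPM of the groups do not overlap for 55.7% of all tested genes at 6 h against mock, for 70% at 24 h against mock and for 60.4% at 24 h against 6 h. PROPEP1 fell at 6 h against mock (log2 -0.73 ± 0.15, SE, 0.604-fold, edgeR adjusted p = 0.0025). At 24 h against mock the change was -0.15 ± 0.14 (adjusted p = 0.371 by edgeR), with a 95% interval of -0.43 to 0.13. At 24 h against 6 h it was 0.57 ± 0.15 (edgeR adjusted p = 0.0066), which is 1.49-fold and just under the 1.5-fold limit. PROPEP1 was thus lowest at 6 h, and at 24 h its libraries overlapped those of mock. The call at 6 h was lost without mock replicate 2 (-0.64, edgeR adjusted p = 0.0176), mock replicate 3 (-0.71, 0.0113) or 6 h replicate 2 (-0.64, 0.0115). The difference between 24 h and 6 h passed the limit without mock replicate 2 (0.59) or 24 h replicate 1 (0.64).

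PROPEP2, the first gene of the tandem, showed the deepest fall of the 5. It had 32, 22 and 17 reads at 24 h (1.12, 0.971 and 0.660 CPM), 41, 37 and 34 reads at 6 h (1.53, 1.36 and 1.199 CPM) and 70, 95 and 75 reads in mock (2.58, 3.23 and 2.36 CPM). The 3 groups did not overlap, with 24 h lowest and mock highest. PROPEP2 fell 2.94-fold at 24 h against mock (log2 -1.56 ± 0.23, SE, edgeR adjusted p = 7.73e-05), and 3.48% of tested genes had a lower log2 change. At 6 h against mock it fell 2.00-fold (-0.997 ± 0.21, edgeR adjusted p = 0.00344), and 4.09% of genes were lower. The step at 24 h against 6 h was -0.56 ± 0.25 and was not called (edgeR adjusted p = 0.0735). The call at 24 h held when each library was left out in turn, at changes of -1.75 to -1.37. The call at 6 h was lost without mock replicate 2 (-0.85, edgeR adjusted p = 0.0217), 6 h replicate 2 (-0.98, 0.0111) or 6 h replicate 3 (-0.91, 0.0188).

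PROPEP3, the last gene of the tandem, followed another course. It had 82, 73 and 73 reads at 24 h (2.88, 3.22 and 2.83 CPM), 126, 159 and 144 reads at 6 h (4.69, 5.85 and 5.08 CPM) and 97, 143 and 214 reads in mock (3.57, 4.86 and 6.74 CPM). The 24 h libraries were below all others, while the 6 h libraries lay within the wide range of mock, in which replicate 3 was highest. PROPEP3 fell at 24 h against mock (log2 -0.77 ± 0.21, SE, edgeR adjusted p = 0.00606) and at 24 h against 6 h (-0.81 ± 0.21, edgeR adjusted p = 0.00605). At 6 h against mock the change was 0.03 ± 0.20 (edgeR adjusted p = 0.909), with a 95% interval of -0.35 to 0.42. PROPEP3 was thus not called at 6 h, where its neighbours fell, and the difference between the genes' changes was not tested. Each of its calls was lost in several of the fits that left out 1 library. The call at 24 h against mock was lost without mock replicate 2 (-0.78), mock replicate 3 (-0.51) or 24 h replicate 1 (-0.75), 2 (-0.83) or 3 (-0.74), at edgeR adjusted p of 0.0103 to 0.0307. The call at 24 h against 6 h was lost without mock replicate 2 (-0.79), 6 h replicate 2 (-0.71) or 3 (-0.83), or 24 h replicate 1 (-0.78), 2 (-0.87) or 3 (-0.78), at edgeR adjusted p of 0.0108 to 0.0265.

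PEPR1 is the receptor with the broader range of Pep ligands and had by far the most reads. It had 926, 802 and 1034 reads at 24 h (32.5, 35.4 and 40.1 CPM), 1073, 1140 and 1220 reads at 6 h (39.95, 42.0 and 43.0 CPM) and 1550, 1605 and 1715 reads in mock (57.1, 54.6 and 54.0 CPM). All libraries with estradiol were below all mock libraries, and the 24 h and 6 h libraries overlapped at 24 h replicate 3. PEPR1 fell 1.53-fold at 24 h against mock (log2 -0.62 ± 0.08, SE, edgeR adjusted p = 2.16e-05). At 6 h the change was -0.41 ± 0.08, with an edgeR adjusted p of 0.00162 but a size below 1.5-fold, so it was not called. At 24 h against 6 h it was -0.21 ± 0.08 (edgeR adjusted p = 0.0368). Without 24 h replicate 1 the change at 24 h against mock was -0.55, which is below the 1.5-fold limit.

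PEPR2, the close homologue of PEPR1, is known to bind PEP1 and PEP2. It had 122, 110 and 132 reads at 24 h (4.28, 4.86 and 5.12 CPM), 165, 197 and 181 reads at 6 h (6.14, 7.25 and 6.38 CPM) and 235, 274 and 304 reads in mock (8.65, 9.32 and 9.57 CPM). The 3 groups did not overlap, with 24 h lowest and mock highest. PEPR2 fell 1.94-fold at 24 h against mock (log2 -0.95 ± 0.11, SE, edgeR adjusted p = 1.4e-05), a call that held when each library was left out in turn, at -1.01 to -0.88. At 6 h against mock the change was -0.48 ± 0.11 and at 24 h against 6 h -0.47 ± 0.12, and both had an edgeR adjusted p under 0.01 (0.00501 and 0.0045) without reaching 1.5-fold. At its start PEPR2 shares 225 and 739 bases with the annotated antisense RNAs AT1G05323 and AT1G05327, for which the files list an exon length of 0, and at its end it shares 14 exon bases with AT1G17760. The sources do not say whether the counting used strand, and reads of PEPR2 and of these antisense transcripts therefore cannot be told apart.

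Levels can be set beside each other between genes only per exon length, as RPKM. In mock, PEPR1 was highest at 14.1 ± 0.530 RPKM (SD, n = 3), followed by PROPEP3 at 9.54 ± 2.93, PROPEP1 at 6.21 ± 0.738, PROPEP2 at 3.96 ± 0.661 and PEPR2 at 2.43 ± 0.107 RPKM. PROPEP3 and PROPEP1 overlapped in mock across libraries, with 6.81 to 12.6 RPKM for PROPEP3 and 5.43 to 6.90 for PROPEP1. Within each mock library PROPEP3 was the higher of the pair, at 1.25, 1.33 and 2.01 times PROPEP1. At 24 h PROPEP3 (5.33 ± 0.151 RPKM) and PROPEP1 (5.32 ± 0.378 RPKM) could not be separated, and PROPEP2 (1.26 ± 0.313 RPKM) and PEPR2 (1.19 ± 0.125 RPKM) were likewise within their spread. The ratio of PROPEP3 to PROPEP1 in RPKM was 1.00 ± 0.0598 at 24 h and 2.65 ± 0.537 at 6 h, against 1.53 ± 0.414 in mock (SD, n = 3). The summed receptor level was 9.96 ± 1.29 RPKM at 24 h and 12.2 ± 0.416 RPKM at 6 h, against 16.6 ± 0.424 RPKM in mock. Within it, PEPR1 exceeded PEPR2 7.34 ± 0.263 times at 24 h and 6.15 ± 0.481 times at 6 h, against 5.85 ± 0.485 times in mock. The library ranges of this ratio were 7.07 to 7.60 at 24 h, 5.61 to 6.54 at 6 h and 5.47 to 6.40 in mock, so only the 24 h libraries stood apart.

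The 5 other annotated precursor genes make Peps of the same family and did not move as a block. Of the 4 that were tested, PROPEP7 fell at 24 h against mock and PROPEP5 fell at 6 h, and none rose against mock. Of all tested genes 18% fell and 17.6% rose at 24 h, and 7.71% fell and 5.43% rose at 6 h. PROPEP7 had 9.13, 11.5 and 8.92 CPM at 24 h and 14.8, 21.0 and 19.0 CPM at 6 h, against 23.0, 19.4 and 21.9 CPM in mock. Its 24 h libraries were below all others, and it fell by 1.13 ± 0.14 (log2, SE, edgeR adjusted p = 1.78e-05) at 24 h against mock and by 0.89 ± 0.14 (0.000193) at 24 h against 6 h. PROPEP6 had 24.9, 32.9 and 21.9 CPM at 24 h and 14.1, 20.4 and 16.04 CPM at 6 h, against 25.2, 24.2 and 26.1 CPM in mock. Like PROPEP1, PROPEP6 was lowest at 6 h: it rose by 0.65 ± 0.15 at 24 h against 6 h (edgeR adjusted p = 0.00319), while its change at 6 h against mock (-0.58 ± 0.15, 0.0108) was just short of a call, and was called with limma-voom (-0.59, 0.00885) and with only the 2 groups compared (-0.59, 0.00218). The rise of PROPEP6 was not called without 6 h replicate 1 (0.54), 6 h replicate 3 (0.62) or 24 h replicate 2 (0.47). PROPEP4 averaged 10.13 ± 1.68 CPM at 24 h and 10.2 ± 0.646 CPM at 6 h, against 10.12 ± 0.482 CPM in mock (SD, n = 3), with changes of 0.01 ± 0.12 at 24 h and 0.01 ± 0.12 at 6 h against mock and 95% intervals within -0.23 to 0.24.

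PROPEP5 was close to the limit of detection. It had 9, 6 and 2 reads at 24 h and 2, 1 and 8 reads at 6 h, against 16, 19 and 22 reads in mock. All libraries with estradiol were below all mock libraries. The change was -1.53 ± 0.50 at 24 h (log2, SE, edgeR adjusted p = 0.0172) and -2.24 ± 0.54 at 6 h (0.00694), and only the change at 6 h was called. That call was lost without mock replicate 1 (-2.29), 2 (-2.23) or 3 (-2.18), or without 6 h replicate 1 (-1.96) or 2 (-1.79). PROPEP8 had 0 reads at 24 h, a count that allows up to 3, with 4 at 6 h and 7 in mock over the 3 libraries of each group, too few to be tested. The summed level of all 8 precursor genes was 73.4 ± 4.69 RPKM at 24 h and 80.3 ± 6.72 RPKM at 6 h, against 102 ± 3.02 RPKM in mock (SD, n = 3). PROPEP1, PROPEP2 and PROPEP3 made up 16.2% ± 0.767 of it at 24 h, 19.1% ± 1.28 at 6 h and 19.3% ± 2.98 in mock.

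**Figure D2:**
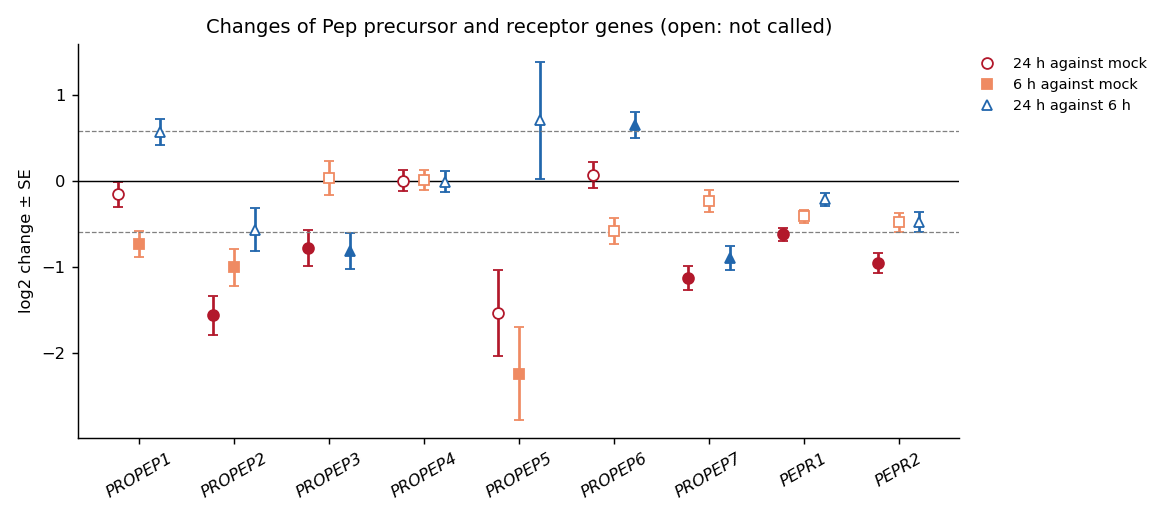
Log2 change with SE (vertical axis) of the 7 tested precursor genes and 2 receptor genes at 24 h against mock (circles), 6 h against mock (squares) and 24 h against 6 h (triangles), filled where the gene was called; dashed lines mark 1.5-fold. PROPEP2 at -1.56 and PROPEP7 at -1.13 are the lowest filled circles, PROPEP4 lies at 0.01, and PROPEP1 and PROPEP6 are lower at 6 h than at 24 h.

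The genes around the tandem did not share one direction. On the PROPEP2 side, DPE1, a plastid enzyme of starch breakdown, fell by 1.25 ± 0.11 (log2, SE) at 24 h and by 1.02 ± 0.11 at 6 h against mock (edgeR adjusted p = 1.53e-06 and 3.73e-05). AT5G64880, which directly precedes PROPEP2, had changes of -0.31 ± 0.10 at both times and was not called, and AT5G64870 was not called either. On the PROPEP3 side, AT5G64910 had 40, 32 and 22 reads at 24 h and 4, 7 and 3 reads at 6 h, against 1, 1 and 2 reads in mock, and rose at 24 h (4.62 ± 0.47, edgeR adjusted p = 3.99e-06). Its end overlaps CIP8, a ubiquitin ligase gene on the other strand, which rose by 1.27 ± 0.10 at 24 h (3.16e-07), so their reads cannot be told apart there. AT5G09285 had no reads.

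**Figure D3:**
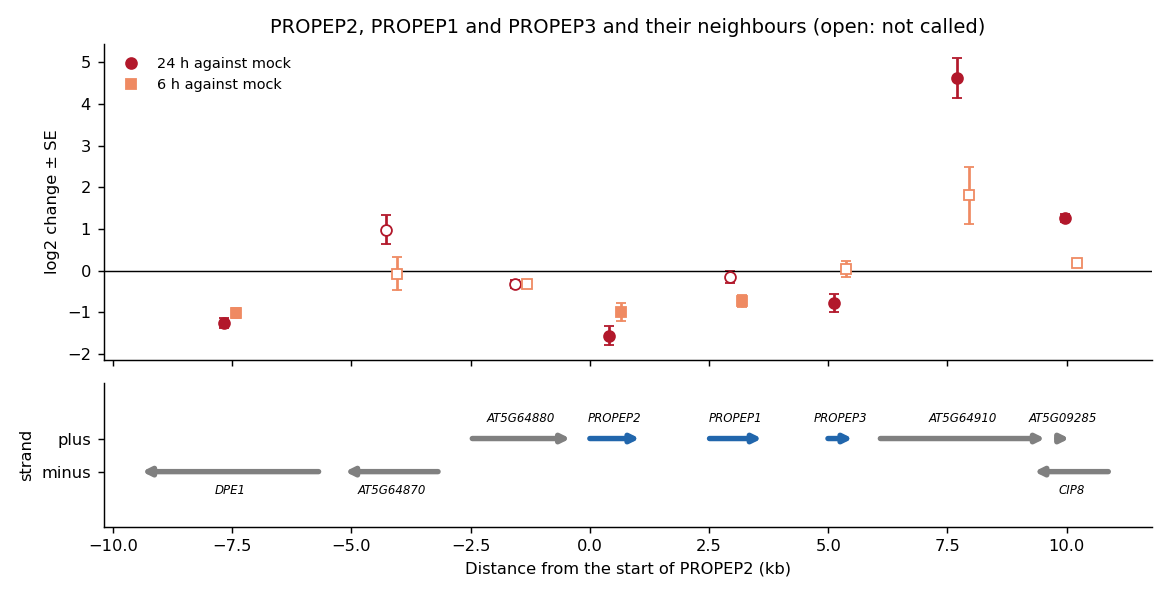
Log2 change with SE (upper panel) of the genes around PROPEP2, PROPEP1 and PROPEP3 at 24 h (circles) and 6 h (squares) against mock, filled where called, above their extent and strand (lower panel, distance from the start of PROPEP2 in kb). The precursors lie at or below 0 except PROPEP3 at 6 h (0.03), between DPE1, which fell, and AT5G64910 and CIP8, which rose at 24 h.

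Genes that act with the receptors were counted by role. Of 5 SERK co-receptor genes, whose kinases pair with PEPR1 and PEPR2 after ligand binding, 4 fell and 0 rose at 24 h against mock (median -0.72), and none was called at 6 h (median -0.24). SERK2 fell by 1.00 ± 0.11 (log2, SE), SERK5 by 0.88 ± 0.10, BKK1 by 0.72 ± 0.09 and SERK1 by 0.67 ± 0.08 at 24 h, with edgeR adjusted p of 2.22e-05 or less. BAK1, the main co-receptor, was the exception at 0.14 ± 0.07 (edgeR adjusted p = 0.0963). Receptor and co-receptor genes other than BAK1 were thus lower together at 24 h, beside 18% of all tested genes that fell. Every read counted for BAK1, SERK1 and SERK2 was uniquely mapped. BKK1 and SERK5 also held reads that were not, which the authors' counting could split between genes. In mock replicate 1, 537 of 658 reads were unique for BKK1 and 409 of 528 for SERK5.

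Of 6 type II metacaspase genes, the proteases that include the PROPEP-cutting MC4, 1 rose and 2 fell at 24 h against mock, where 17.6% of all tested genes rose and 18% fell, and 1 rose at 6 h, where 5.43% rose and 7.71% fell. MC4 itself missed the 1.5-fold limit, at 0.33 ± 0.08 (log2, SE) at 24 h (edgeR adjusted p = 0.00263) and 0.15 ± 0.08 at 6 h (0.16). MC8 rose by 3.63 ± 0.17 at 24 h and by 0.90 ± 0.20 at 6 h, and MC7 and MC6 fell at 24 h by 0.92 ± 0.12 and 0.73 ± 0.19. The call of MC6 was lost without mock replicate 2 (-0.71), mock replicate 3 (-0.64) or 24 h replicate 1 (-0.51), and that of MC8 at 6 h without mock replicate 1 (0.89), mock replicate 3 (0.86) or 6 h replicate 2 (0.77).

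Downstream of the receptors, 2 of 8 proximal signalling genes rose at 6 h against mock, where 5.43% of all tested genes rose, and 1 fell at 24 h, where 18% of all fell. BIK1, a cytoplasmic kinase that PEPR1 phosphorylates, rose by 0.85 ± 0.08 (log2, SE) at 6 h (edgeR adjusted p = 1.39e-05) and was at -0.06 ± 0.08 at 24 h against mock. RBOHD, the NADPH oxidase of the oxidative burst, rose by 0.61 ± 0.08 at 6 h (9.62e-05) and was at -0.18 ± 0.08 at 24 h, and its rise was below 1.5-fold without 6 h replicate 1 (0.52). CPK28, a calcium-dependent kinase that limits BIK1, fell by 0.68 ± 0.08 at 24 h, and PBL1, the homologue of BIK1, was not called (-0.50 ± 0.08). Of 5 MAP kinase cascade genes only MPK3 was called, falling by 1.01 ± 0.09 at 24 h and by 0.93 ± 0.09 at 6 h. Among all tested genes 18% fell at 24 h and 7.71% at 6 h. MPK6 was at 0.53 ± 0.07 at 24 h. BIK1 and RBOHD thus stood higher at 6 h, when neither receptor gene was higher than in mock.

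Of 12 defense genes used as readouts of danger or pattern perception, 9 were tested. At 6 h against mock 4 rose and 0 fell (median 0.96), where 5.43% of all tested genes rose and 7.71% fell. At 24 h against mock 0 rose and 2 fell (median 0.22), where 17.6% of all rose and 18% fell. FRK1, a receptor kinase gene of early immunity, was 2.40 ± 0.19 (log2, SE) higher at 6 h and at 0.27 ± 0.21 at 24 h. CYP81F2, an enzyme of indole glucosinolate synthesis, rose by 1.54 ± 0.20 at 6 h and fell by 1.60 ± 0.23 at 24 h. NHL10, a defense marker, rose by 1.32 ± 0.15 at 6 h, as did WRKY53 by 0.96 ± 0.18, and MYB51, a regulator of indole glucosinolate genes, fell by 1.08 ± 0.10 at 24 h. All these calls had edgeR adjusted p of 0.0014 or less. At 24 h against 6 h 5 of the 9 fell and 0 rose, where 10.5% of all tested genes fell and 14.1% rose.

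Other danger and pattern receptors offer a comparison with PEPR1 and PEPR2. Of 6 tested pattern receptor genes 2 rose at 6 h against mock, beside 5.43% of all tested genes, and 1 rose and 3 fell at 24 h, beside 17.6% and 18% of all. FLS2, the flagellin receptor, rose by 2.00 ± 0.22 (log2, SE) at 6 h and fell by 1.36 ± 0.30 at 24 h, but the fall was not called with limma on log2(RPKM + 1) (-0.18, adjusted p = 0.0331). FLS2 had few reads at 24 h (11, 6 and 14) and in mock (22, 27 and 43), and 108, 117 and 118 at 6 h. EFR, the receptor for elongation factor Tu, rose by 0.94 ± 0.15 at 6 h and was at -0.28 ± 0.16 at 24 h. SOBIR1 fell by 0.73 ± 0.08 and LORE by 0.80 ± 0.14 at 24 h, and CERK1, a chitin co-receptor, rose by 0.92 ± 0.08. Of 11 genes for other stress peptides and their receptors 2 rose and 2 fell at 6 h (5.43% and 7.71% of all tested genes), and 0 rose and 4 fell at 24 h (17.6% and 18% of all). MIK2, the receptor of SCOOP peptides, rose by 0.59 ± 0.09 at 6 h and fell by 1.29 ± 0.09 at 24 h, and its rise was below 1.5-fold without mock replicate 1 (0.50) or 6 h replicate 1 (0.57). The peptide gene SCOOP12 fell by 1.26 ± 0.17 at 24 h and by 0.73 ± 0.17 at 6 h, and the call at 6 h was lost without any of mock replicates 2 and 3 and 6 h replicates 1, 2 and 3, at changes of -0.79 to -0.48. HSL3 rose by 0.85 ± 0.09 at 6 h, and DORN1, the receptor of extracellular ATP, fell by 0.84 ± 0.07 at 24 h. The precursor gene of the PIP2 danger peptide fell by 2.37 ± 0.41 at 24 h and by 1.74 ± 0.37 at 6 h. Its reads were few, with 5, 4 and 6 at 24 h and 9, 6 and 10 at 6 h, against 31, 17 and 43 in mock. BAK1, WRKY53, LORE and PIP2 were added to the named genes after their values were seen, and their results were not checked under the alternative settings.

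**Figure D4:**
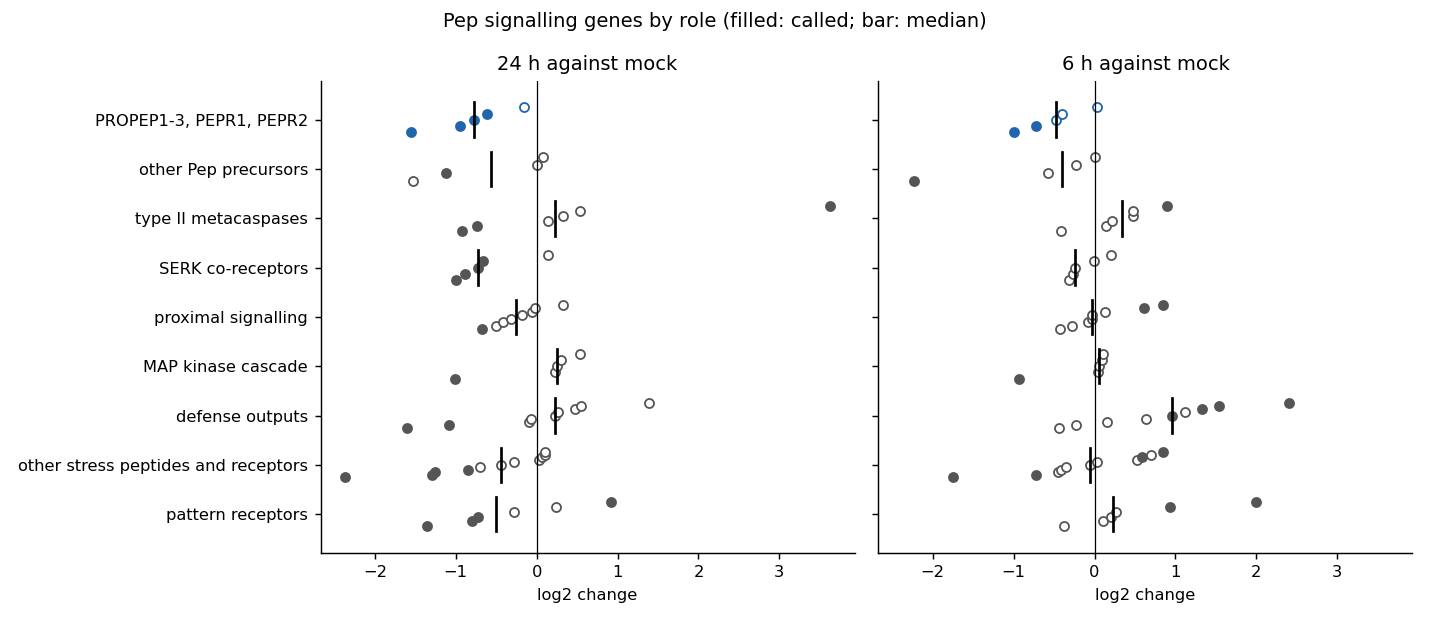
Log2 change (horizontal axis) at 24 h (left) and 6 h (right) against mock of PROPEP1 to PROPEP3 and the receptors (blue) and of the genes of each role (grey), 1 point per tested gene, filled where called, with the median as a bar. The blue points lie at or left of 0 except PROPEP3 at 6 h (0.03); the co-receptors lie to the left at 24 h except BAK1 (0.14), and the defense outputs have a median of 0.96 at 6 h, with ORA59 (-0.43) and WRKY33 (-0.23) left of 0.

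The genes with the most similar pair of log2 changes (6 h against mock and 24 h against mock) were sought by Euclidean distance between the pairs. The candidates were 10208 tested genes that had a name and averaged 1 CPM or more over the 9 libraries. The nearest to PROPEP1 was WRKY75, a stress-responsive transcription factor gene (distance 0.012), with changes of -0.14 at 24 h and -0.73 at 6 h, followed by BLH4 and CPLS1 (0.020 and 0.028). The nearest to PROPEP2 was RPS2 (AT4G26090), an intracellular immune receptor gene (0.027), with -1.54 at 24 h and -1.01 at 6 h, followed by XTH31 and BHLH90 (0.030 and 0.032). For PROPEP3 they were RLP57, CNGC13 and PCMP-E103 (0.010, 0.023 and 0.027). PEPR1 was nearest to FTRC, CYTB5-D and the blue-light receptor gene CRY1 (0.0014, 0.016 and 0.020). PEPR2 was nearest to EZA1, which encodes a histone methyltransferase, SMC6A and EMB2279 (0.0089, 0.0092 and 0.021). All these distances were smaller than the SE of the changes compared, so neither the order nor the choice of the nearest genes was resolved. Within a distance of 0.25 lay 82 candidates for PROPEP1, 91 for PROPEP2, 320 for PROPEP3, 714 for PEPR1 and 451 for PEPR2.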

How the data were processed

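Per the labels, each of 9 libraries is a biological replicate of its group. Separate sowings are not given, and the p-values rest on differences among these samples that may partly be technical. CLC Genomics Workbench was used by the authors to trim reads and map them to TAIR10. They deposited, for each gene and library, counts of total and unique exon reads, RPKM, TPM and exon length. RPKM values were scaled by the authors to exon length and mapped total. The deposited TPM values entered no result, and the exon lengths were used only to check the files. These lengths equalled the TAIR10.1 annotation for all 5 genes and for 99.36% of 27445 genes compared.

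Total counts of all libraries were fitted together by the quasi-likelihood method of edgeR 4.0.16 under R 4.3.3, after filterByExpr and TMM scaling, and 20272 genes were tested. Same-numbered libraries deviated together between 24 h and 6 h (correlations of 0.152 to 0.335 in 3 pairs) but not in every pair with mock, and with the replicate number as a block no call of the 5 genes changed. Calls needed an adjusted p under 0.01 and at least 1.5-fold, as in the study's methods. The SE is the size of the log2 change divided by the root of the F statistic. The biological coefficient of variation was 0.0909. Depth was 24375822 to 31299634 counted reads, of which 98.5% to 98.6% were unique. On simulated counts with 50 genes changed per fold size, 36% were recovered at 1.5-fold and 92% at 2-fold in each comparison with mock, with 1 false call at 6 h and 2 at 24 h. Changes planted at 1.5-fold lay at the fold limit itself, so any estimate below it was not called, whatever the depth.

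Members and lists were chosen with earlier results of these data known. Genes are named by a rule: the 5 members, STZ, all other precursors, up to 4 genes of each list by smallest p with called genes first, 3 neighbours on either side of the tandem and the 3 nearest patterns. The alternatives were DESeq2 size factors or total counts alone, a filter of 1 CPM in 3 libraries or none, DESeq2 1.42.0, limma-voom (limma 3.58.1), unique reads, only 2 groups, a replicate block, limma on log2(RPKM + 1) and log2(RPKM + 0.1), and leaving out each library. Another, no fold limit, was chosen after seeing the data. Sequences and motifs were read from RefSeq TAIR10.1, and coding sequences were aligned globally with Biopython 1.88. Protein sequences were not analysed here.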

Additional observations from a re-analysis of the deposited data

Results flagged for a closer look

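PROPEP3 fell between the 2 times by a test of the difference itself, past both the p and the 1.5-fold limit: its log2 change was -0.77 ± 0.21 (SE) at 24 h and 0.03 ± 0.20 at 6 h against the same mock libraries, and the contrast of 24 h against 6 h was -0.81 ± 0.21 (edgeR adjusted p = 0.00605). The call was lost without any 1 of 6 of the 9 libraries, as given above. PEPR2 (-0.47 ± 0.12, adjusted p = 0.0045) and PROPEP1 (0.57 ± 0.15, 0.0066) also passed the p limit in the edgeR contrast of 24 h against 6 h, at sizes below 1.5-fold. For PROPEP3, all 3 libraries at 24 h (2.83 to 3.22 CPM) were below all 3 at 6 h (4.69 to 5.85 CPM). The mock libraries spread from 3.57 to 6.74 CPM, and no cause of that spread was tested.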

How the results depend on the processing

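For the 5 genes in 3 comparisons, 278 of 300 values under 20 alternatives kept the side of the threshold, and none of the called changes reversed. Of the 278, 2 changed sign without being called, both for PROPEP3 at 6 h against mock. There, leaving out 1 library at a time gave -0.16 to 0.30. The fall of PROPEP3 at 24 h against mock was not called with limma-voom (-0.74, adjusted p = 0.0119) or with only the 2 groups compared in edgeR (-0.75, adjusted p = 0.0157). Leaving out 1 library at a time gave -0.97 to -0.51 for PROPEP3 at 24 h against mock, -0.88 to -0.71 for PROPEP3 at 24 h against 6 h, -0.82 to -0.64 for PROPEP1 and -1.09 to -0.85 for PROPEP2 at 6 h against mock, -0.70 to -0.55 for PEPR1 at 24 h against mock and 0.51 to 0.64 for PROPEP1 at 24 h against 6 h, with calls that changed as given above. With no fold limit, an alternative chosen after seeing the data, PEPR2 (-0.48) and PEPR1 (-0.41) at 6 h against mock and PEPR2 (-0.47) and PROPEP1 (0.57) at 24 h against 6 h were called too, and the calls over all genes were 11022 at 24 h against mock, 4736 at 6 h against mock and 8742 at 24 h against 6 h, in place of 7206, 2662 and 4979. Over all 3 comparisons same-numbered libraries had correlations of -0.05 to 0.34, over 0.1 in 5 of 9 pairs, and not every library correlated best with its own number. With the replicate number as a block PROPEP2 was at -1.56 and PEPR2 at -0.95 at 24 h against mock, no call of the 5 genes changed, and 7318 genes were called for 24 h and 2813 for 6 h against mock, and 5079 between 24 h and 6 h. With the block PROPEP6 fell at 6 h against mock (-0.60, adjusted p = 0.00198). For BAK1, WRKY53, LORE, PIP2 and the genes nearest in pattern the alternatives were not checked. Of 2749 values (138 results) for the remaining named genes, 2682 kept their side of the threshold and 0 reversed while called. Values that were not called could change sign and still count as kept. Calls lost among them include RBOHD (0.58) and MIK2 (0.56) at 6 h with total counts alone, MC8 at 6 h with limma-voom (0.89) and MC6 at 24 h with only the 2 groups compared (-0.70). Depth limits PROPEP5 and PROPEP8 most. The 36% of simulated 1.5-fold changes that were recovered does not measure depth alone, because these changes lay at the fold limit itself and also had to pass the p limit.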
